A study of Ginkgo biloba with 2 samples.

Results

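The miRNAs described here are 71 of the 467 miRNA names counted in leaves of the ginkgo tree, Ginkgo biloba. They are names that carry only a number from the authors (novel_1 and so on, 215 names in all), and they were chosen by their reads: the raw counts of the green and the yellow library together had to come to at least 50 and under 1000. The deposited data hold 1 library of normal green leaves and 1 of mutant leaves labelled yellow. Both came from an adult tree sampled in 2015 and 2016, and the labels give no treatment and no mutated gene. The growth text describes the mutant leaves as yellow-green striped, so green tissue may be present in the yellow library, and the extraction text mentions cambium where the tissue label has leaf. The sources used here do not say how many leaves or branches went into each library. The files hold no messenger RNA levels, so the leaf label could not be checked against marker genes.

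Plant miRNAs are short RNAs that a Dicer-like enzyme cuts from a hairpin precursor and that an Argonaute protein uses to find messenger RNAs with a closely matching site, which are then cleaved or translated less. Families that are old in plants, such as miR156 or miR396, carry miRBase names and mostly act on transcription factor genes, while each plant lineage also makes many miRNAs of its own. A name with a number alone marks a small RNA that the authors predicted to be a miRNA without giving it a family. Such a prediction is not proof of a hairpin. No sequence of these names was analysed here, so whether a numbered name is a variant of a known family was not tested.

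The 71 names made up a small part of the pool. They held 0.462% of the summed reads in green and 0.343% in yellow leaves, whereas the 54 numbered names with 1000 or more reads held 64.5% and 67.9%. Read counts were scaled to the column totals, 2084893 green and 2793966 yellow reads, and are given as CPM (the reads of a name per 1000000 reads of the column), a level on which 1 read stood for 0.480 CPM (green) or 0.358 CPM (yellow). The median member stood at 39.3 CPM in green leaves, with a range from 0 to 330.5 CPM, and at 27.6 CPM in yellow leaves, with a range from 0.358 to 258.1 CPM. At the lower end of the choice novel_117 and novel_201 had 51 reads each and novel_136 had 52, and the nearest names left out were novel_134 and novel_139 with 49 reads each and novel_153 with 48. At the upper end novel_92 had 872, novel_200 had 903 and novel_78 had 942 reads, and the nearest names left out were novel_180 with 1032, novel_275 with 1170 and novel_194 with 1220. No 2 of the 71 names had equal counts in both libraries.

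The comparison of yellow with green leaves asked which miRNAs differ in the mutant. With 1 library per leaf type there was no replicate check and no test. Each ratio of yellow over green CPM is given with a 95% exact (Clopper-Pearson) interval that covers counting error only, and since the labels mention no molecular tags, reads are not taken as separate molecules. A name was called higher or lower when the ratio was at least 2 in either direction and the interval left out 1. By this rule 17 of the 71 names were higher in yellow leaves, 24 were lower and 30 were neither. Over all 246 names with 50 or more reads 11.0% were called higher and 27.2% lower, against 23.9% and 33.8% of the numbered names described here. The 246 names include these 71, and 17 of their 27 higher names are numbered names described here. Higher names with 0 to 17 green reads reached 50 summed reads through the yellow library. In the same way lower names with under 50 yellow reads, such as novel_287 with 1 and novel_114 with 40, needed the green library. The shares of higher and of lower names are therefore partly set by the choice, under any scaling, and support nothing about these names. Among the 65 miRBase names with at least 50 and under 1000 reads 36.9% were lower and 0.00%, that is 0 of 65, were higher, and several of those names can count the same reads.

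The numbered names spread widely around their middle. Their median log2 ratio was -0.52, beside -0.48 for the 246 names with 50 or more reads and -0.56 for the 65 miRBase names, and the central 50% ran from -1.32 to 0.70, beside -1.81 to -0.06 for the miRBase names. These medians moved with the scaling, and with TMM factors the median of the 71 names was -0.05. All 17 names called higher were also higher under the other 3 scalings tried, which each raise every ratio by a common factor, while only 13 of the 24 lower names kept that call throughout. With TMM 19 of the 71 names were higher and 13 lower, against 20.7% and 17.9% of all 246 names and 4.62% and 30.8% of the 65 miRBase names. By median of ratios 19 were higher and 16 lower, against 19.1% and 19.1% of the 246 names and 3.08% and 30.8% of the miRBase names. When novel_1, the most-read name, was left out of the total, 17 were higher and 21 lower, against 15.4% and 22.8% of the 246 names and 3.08% and 35.4% of the miRBase names. The reads of the 17 higher names came to 657 in green and 3453 in yellow leaves, and those of the 24 lower names to 5300 and 2153.

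**Figure D1:**
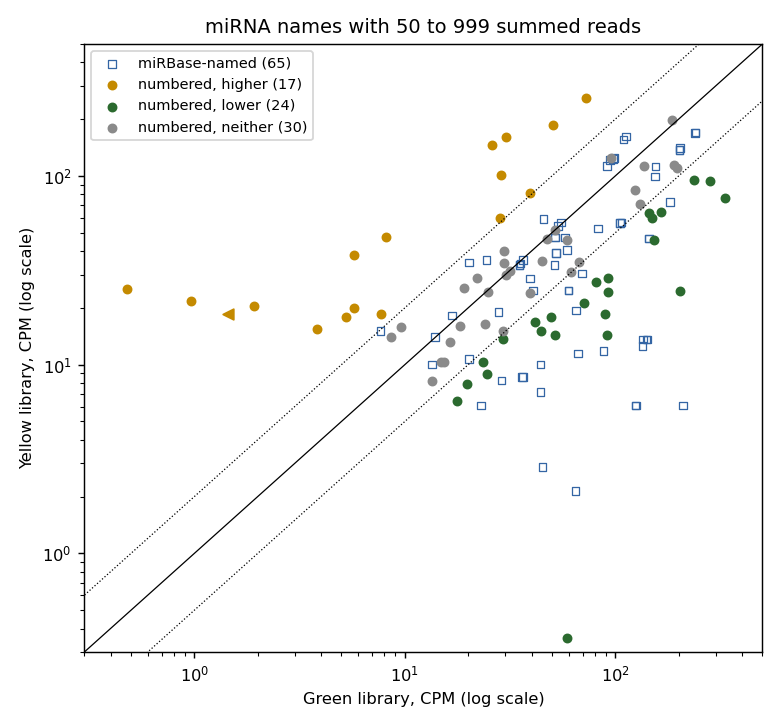
Level in yellow leaves against level in green leaves, in CPM on log axes, for the 71 numbered names (filled points, coloured by call) and the 65 miRBase names (open squares) in the same range of summed reads, 1 library per leaf type. The solid line marks equal levels and the dotted lines 2-fold; the left-pointing triangle is novel_136, with 0 reads in green leaves, drawn at the floor of 3 counts. Of the numbered names 17 lie above the upper dotted line, where none of the miRBase names was called.

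The numbered names with the largest ratios were close to absent from green leaves. novel_127 was counted 1 time in the green and 70 times in the yellow library (0.480 and 25.1 CPM), a ratio of 52.2 with an interval of 9.07 to 2092. It was followed by novel_330, with 2 and 61 reads (0.959 and 21.8 CPM) and a ratio of 22.8 (6.04 to 192.2), and by novel_137, with 4 and 57 reads and a ratio of 10.6 (3.93 to 40.4). For novel_136, with 0 green and 52 yellow reads (18.6 CPM), the level was at least 12.9-fold higher against a floor of 3 counts in the green library, and the lower bound of its counting interval was 10.15. The floor was used only for the count of 0, and the intervals of these 4 names overlap, so their order was not resolved.

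Other higher names had enough reads in both libraries for a narrower interval. The level of novel_100 was 30.2 CPM (green) and 160.3 CPM (yellow), from 63 and 448 reads, a ratio of 5.31 (4.07 to 7.02). That of novel_111 was 25.9 and 146.0 CPM, from 54 and 408 reads, a ratio of 5.64 (4.24 to 7.63). The most-read higher name, novel_92, had levels of 72.4 CPM (green) and 258.1 CPM (yellow), from 151 and 721 reads, a ratio of 3.56 (2.99 to 4.27). All 3 were several-fold higher in the yellow library, and neither novel_100 nor novel_111 had a predicted target. Lower counts stood behind novel_312, with 12 and 106 reads and a ratio of 6.59 (3.62 to 13.2), behind novel_116, with 17 and 133 reads and a ratio of 5.84 (3.51 to 10.3), and behind novel_201, with 8 and 43 reads and a ratio of 4.01 (1.86 to 9.88). In all, 8 of the 71 names were at least 5-fold higher in yellow leaves and 3 at least 5-fold lower, while 3.66% and 8.13% of all 246 names were. The first of these shares stands for 9 names, 8 of them the numbered names just counted. Of these 8, novel_127, novel_330, novel_137, novel_136, novel_312 and novel_116 had 0 to 17 green reads. They reached 50 summed reads through the yellow library. On the lower side novel_287 and novel_114, with 1 and 40 yellow reads, reached that limit through the green library. Both counts are therefore descriptions of the choice and support nothing about these names.

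Among the lower names novel_287 stood apart. It had 123 reads in green leaves (59.0 CPM) and 1 in yellow leaves (0.358 CPM), which made it 164.8-fold lower with an interval of 29.0 to 6563. Its single predicted target was Gb_32916, whose best protein match was selenium-binding protein 1. Next came novel_101, with a green level of 202.9 CPM and a yellow level of 24.7 CPM from 423 and 69 reads, 8.22-fold lower (6.36 to 10.8). It was followed by novel_114, at 91.1 and 14.3 CPM from 190 and 40 reads, 6.37-fold lower (4.51 to 9.19). The most-read lower name was novel_200, with levels of 330.5 CPM (green) and 76.6 CPM (yellow) from 689 and 214 reads, 4.31-fold lower (3.70 to 5.05) and without a predicted target.

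The other lower names chosen by rank lay closer to the limit. novel_81 had 193 and 68 reads and was 3.80-fold lower (2.87 to 5.09), novel_125 had 148 and 59 reads and was 3.36-fold lower (2.47 to 4.63), and novel_80 had 590 and 261 reads and was 3.03-fold lower (2.61 to 3.52). The call of novel_94, with 491 and 267 reads and 2.46-fold lower (2.12 to 2.87), was lost with TMM and with median-of-ratios scaling, where its ratios were 0.561 and 0.544. The most-read name of all 71, novel_78, had levels of 185.1 CPM (green) and 199.0 CPM (yellow) from 386 and 556 reads. Its ratio of 1.07 had an interval (0.942 to 1.23) that included 1 when scaled by the total. The ratio was 1.49 with TMM, 1.44 by median of ratios and 1.29 without novel_1 in the total, and the interval, which moves by the same factor, then left out 1.

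**Figure D2:**
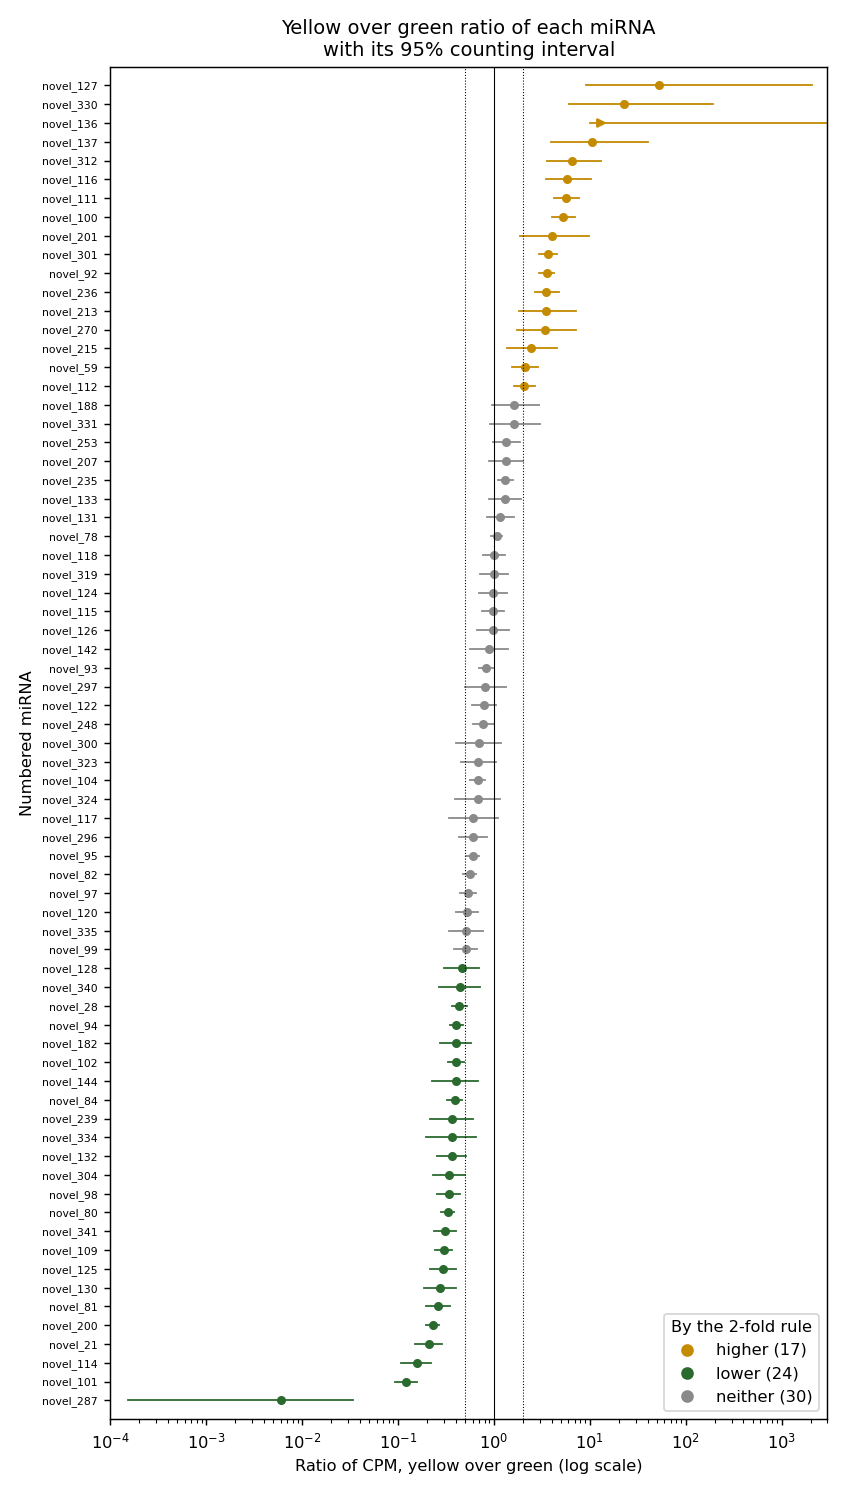
Ratio of yellow over green CPM on a log axis for each of the 71 numbered names, ordered by ratio, with the 95% exact counting interval as a bar; the solid line marks a ratio of 1 and the dotted lines a 2-fold difference. The triangle is novel_136, drawn at its bound of 12.9 because it had 0 reads in green leaves; its interval has no upper end. There are 24 lower, 30 uncalled and 17 higher names, and the order of the top 4, whose intervals overlap, is not resolved because the floor replaced only the count of 0.

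The width of the intervals followed the reads. Among the 21 names with 50 to 99 reads the upper bound was a median 3.27 times the lower bound, among the 29 with at least 100 and under 300 reads 1.95 times, and among the 21 with 300 reads or more 1.45 times. Higher calls numbered 8, 3 and 6 in these groups, and lower calls 5, 11 and 8. The best-read group thus held calls in both directions, and 8 of the 17 higher names stood under 100 reads.

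The second question was which genes these miRNAs are predicted to bind. In the authors' table of predicted targets 58 of the 71 names had at least 1 target gene and 13 had none. Names without a target made up 18.3% of the 71, beside 31.5% of the 54 more abundant numbered names and 16.7% of the 90 numbered names under 50 reads, and 1 of the 65 miRBase names. Of the 17 higher names 6 had no target, among them novel_127, and of the 24 lower names 3 had none. The 58 names were paired with 463 genes in 475 pairs, with a median of 3.0 genes per name over all 71 names and a maximum of 34 for novel_330. A protein match was given for 351 of the 463 genes.

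By the words of the protein match, receptors and kinases were the most frequent of the keyword groups. They held 56 of the 351 matched genes, or 16.0%, beside 11.3% of the 2031 matched genes in the whole table and 9.87% of those listed for miRBase names. Of these 56 genes 20 were targets of 1 name, novel_115, and the share without them was not computed. Transcription factors held 21 genes, or 5.98%, beside 7.53% in the whole table and 11.8% for miRBase names. Chloroplast and photosynthesis proteins held 18 genes (5.13% beside 6.65% in the table), pentatricopeptide proteins, which edit and process organelle RNA, 16 (4.56% beside 5.66%) and disease resistance proteins 14 (3.99% beside 4.87%). Transporters held 11 genes, F-box and ubiquitin proteins 9 and pigment and specialised metabolism 3, and no target matched the words for copper proteins and laccases or for the small RNA pathway. These shares describe the table and were not tested, and 209 of the 351 matched genes fell in no group. A word can miss a protein of its class. The genes matching UNUSUAL FLORAL ORGANS, an F-box protein, and taxane 13-alpha-hydroxylase, a cytochrome P450, were not counted in those groups. It can also take in other proteins, such as nuclear receptor corepressor 1 and inhibitor of Bruton tyrosine kinase, which were counted among receptors and kinases.

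A single miRNA could account for much of a group. novel_115 had 26 predicted targets, of which 20 fell among receptors and kinases, including 7 genes matching a receptor-like kinase named At1g11050 and 4 matching the kinase RKF3. Its level was 47.5 CPM (green) and 46.5 CPM (yellow), from 99 and 130 reads. Scaled by the total its ratio was 0.980, with an interval (0.749 to 1.29) that included 1. Under the other scalings the ratio itself was above 1, at 1.18 to 1.35. For novel_136, the miRNA without reads in green leaves, 8 of 18 targets matched glutathione S-transferases, enzymes that couple glutathione to reactive or toxic compounds, out of 13 such genes in the whole table. Of these 8, 7 matched the same protein, parC, and 6 of the 7 carry IDs from Gb_36784 to Gb_36790. Ankyrin repeat proteins made up 6 of the 8 targets of novel_235, a name with 198 green and 347 yellow reads and a ratio of 1.31 (1.10 to 1.57), and genes matching ROOT PRIMORDIUM DEFECTIVE 1 made up 5 of the 7 targets of novel_98, which was 2.94-fold lower (2.23 to 3.90). The glutathione S-transferase, ankyrin, transposon and single-protein counts were chosen after the targets were seen. Targets that match the same protein can be copies of 1 gene with the same site, so they need not be separate predictions. Words for transposons matched 16 of the 351 genes, or 4.56%, beside 10.6% of the matched genes in the table.

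Further predicted targets of named miRNAs were picked after the matches were seen, so they are single examples and stand for no group. novel_101, lower in yellow leaves, was listed for Gb_24954, matching the early light-induced protein, a chlorophyll-binding protein of light stress. It was also listed for Gb_32739, matching cytochrome P450 71A1. novel_81 was listed for Gb_03076, matching chloroplast ribosomal protein L5. On the side of the higher names novel_312 was listed for Gb_08296, matching PHYTOCHROME KINASE SUBSTRATE 3, and novel_330 for Gb_00444, matching alpha-glucan water dikinase, which phosphorylates starch in plastids. The E-value of a match is the number of matches as good that a search would give at random. It was 1.2e-06 for Gb_08296, a weak match, and 2.5e-134 for Gb_00444. Both targets of novel_78, which was not called, matched taxane 13-alpha-hydroxylase, a cytochrome P450 of taxane synthesis in yew. The files hold no levels for any of these genes, and the sources used here name no prediction tool.

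The third question was whether the numbered names share predicted target genes with miRBase-named families. Of the 463 genes 72, or 15.6%, were also listed for a miRBase name, and these were 5.43% of the 1327 genes listed for miRBase names. The share was 16.1% for the more abundant and 10.5% for the rarer numbered names. Sharing involved 20 of the 58 names with targets and 21 of the 58 families with targets. It was concentrated: 12 of the 20 names shared a single gene, and the 7 names that shared 3 or more genes covered 58 of the 72. Restricted to miRBase names with at least 20 reads, 55 genes were shared.

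**Figure D3:**
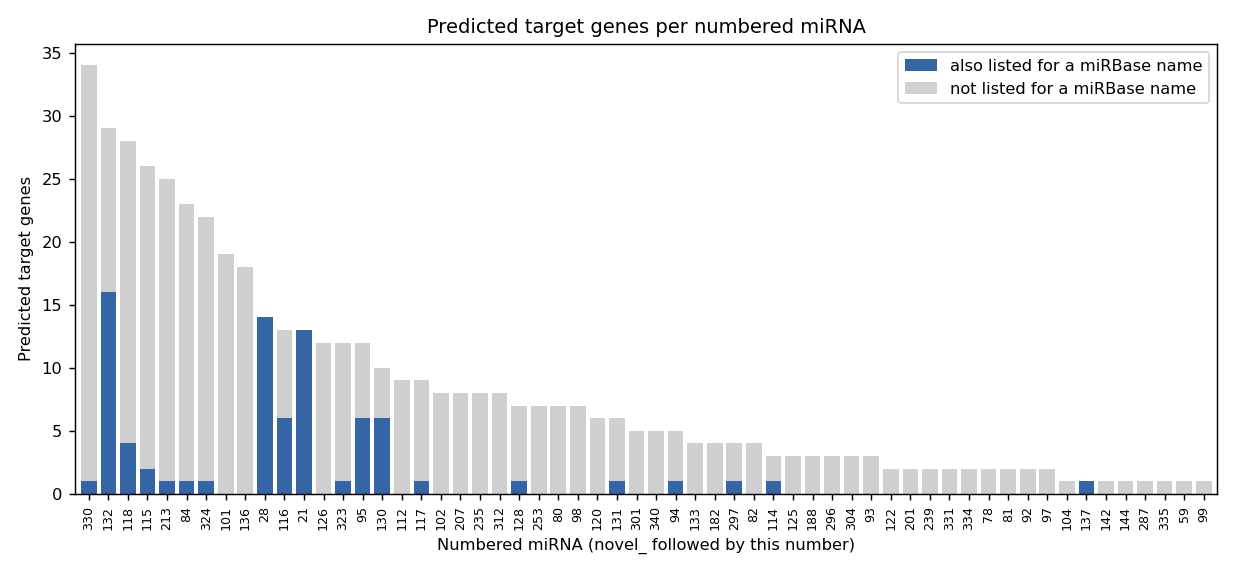
Number of predicted target genes of each of the 58 numbered names that have any, from the authors' target table, split into genes also listed for a miRBase name (blue) and genes not so listed (grey). All targets of novel_28 (14) and novel_21 (13) are shared, while novel_101 (19) and novel_136 (18) share none.

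The miR396 family, which in flowering plants restrains the growth-regulating factors of leaf growth, shared the most genes. All 14 targets of novel_28 and all 13 of novel_21 were also listed for miR396 names, 5 of them for both numbered miRNAs, and 6 of the 12 targets of novel_95 were. Together the 3 names covered 27 of the 110 genes listed for miR396. None of these genes was named a growth-regulating factor, and neither of the 2 genes of that match in the whole table was listed for a miR396 name or a numbered name of this group. Named targets of novel_21 were Gb_33620, matching the isomerase CYP40, Gb_17912, matching a modification methylase, and Gb_20952, matching CROWDED NUCLEI 4, a protein of the nuclear lamina. novel_28 was listed for Gb_33620 and Gb_20952 too and for Gb_01408, matching a calmodulin-interacting protein. Gb_27655 and Gb_24705, which match UNUSUAL FLORAL ORGANS, an F-box protein of flower development in Arabidopsis, were listed for novel_95 and for miR396 names, mostly of the 3p arm.

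Each of the 3 numbered names and the miR396 name that shares the most genes with it, among those with at least 20 reads, had ratios on opposite sides of 1. novel_21 stood at 89.2 CPM (green) and 18.6 CPM (yellow), from 186 and 52 reads, 4.79-fold lower (3.51 to 6.65). ath-miR396b-5p, which lists all 13 of its targets, stood at 30141 and 37047 CPM, a ratio of 1.23 (1.22 to 1.24). novel_28 stood at 145.3 and 63.7 CPM, from 303 and 178 reads, 2.28-fold lower (1.89 to 2.76), a call lost under each other scaling, where its ratio was 0.527 to 0.606. vvi-miR396b, which lists all 14 of its targets, had a ratio of 1.23 (1.21 to 1.24). novel_95 stood at 189.9 and 114.5 CPM, a ratio of 0.603 (0.519 to 0.700), and cca-miR396a-3p, which lists the same 6 genes, at 193.3 and 228.0 CPM, a ratio of 1.18 (1.04 to 1.34). In each of the 3 pairs the numbered name was below 1 and the miR396 name above 1. This order was the same under all 4 scalings. The counts of ath-miR396b-5p (62840 green and 103508 yellow) and vvi-miR396b (61971 and 101786) were nearly equal. These 2 names can count the same reads, so the 3 pairs are not taken as separate observations. Of the 20 miR396 names with at least 20 reads that list a target of novel_21, 18 had ratios above 1 and 2 below 1. A single target, Gb_34232, is listed for 24 miR396 names of the 5p and 3p arms, so it alone can bring a name into this count. These names can also count the same reads and are not taken as separate observations.

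The phase change families miR156 and miR529, which act on the SQUAMOSA promoter-binding-like (SPL) genes of the change from juvenile to adult growth, shared targets with novel_116. Of its 13 targets 6 were listed for miR156 names and 5 for miR529 names. The shared genes included Gb_23724 and Gb_32703, both matching SPL3, Gb_27198, matching SPL12, and Gb_26599, matching SPL7, and these are 4 of the 7 genes with a SQUAMOSA match in the table. The level of novel_116 was 8.15 CPM (green) and 47.6 CPM (yellow), while ath-miR156a-5p, which lists 5 of the same genes, stood at 181.8 and 72.7 CPM, from 379 and 203 reads, a ratio of 0.400 (0.335 to 0.475). ppt-miR529e had 16 green and 42 yellow reads, a ratio of 1.96 (1.08 to 3.73). The numbered name and miR529e were thus above 1 and miR156a below 1, under all 4 scalings.

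The disease resistance regulators miR2118 and miR482, known for targeting receptor genes of the NBS-LRR type, shared 6 of the 10 targets of novel_130. Among them were Gb_12854 and Gb_12858, matching the resistance protein RPS2, and Gb_38508, matching the chlorophyll(ide) b reductase NOL of chlorophyll b breakdown. The E-values were 1.5e-62 for Gb_12854, 2.5e-10 for Gb_12858 and 5.5e-10 for Gb_38508, so the match to NOL was weak. In all 6 of the 10 targets of novel_130 matched disease resistance proteins. It had 108 green and 40 yellow reads (51.8 and 14.3 CPM), 3.62-fold lower (2.50 to 5.34), and gma-miR2118a-3p had 19 and 13 reads, a ratio of 0.511 (0.232 to 1.09). Both ratios were below 1, but the interval of the miR2118 name included 1. No miR482 name that shares a gene with novel_130 had 20 reads. novel_128, with 61 and 38 reads and 2.15-fold lower (1.41 to 3.32), shared 1 resistance gene, Gb_21899, with miR482 and miR1448 and lost its call under each other scaling. None of the miR482 and miR1448 names that list Gb_21899 had 20 reads. In the opposite direction novel_301, with 105 and 517 reads and a ratio of 3.67 (2.97 to 4.58), had 3 resistance genes among its 5 targets and shared none with a miRBase name.

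**Figure D4:**
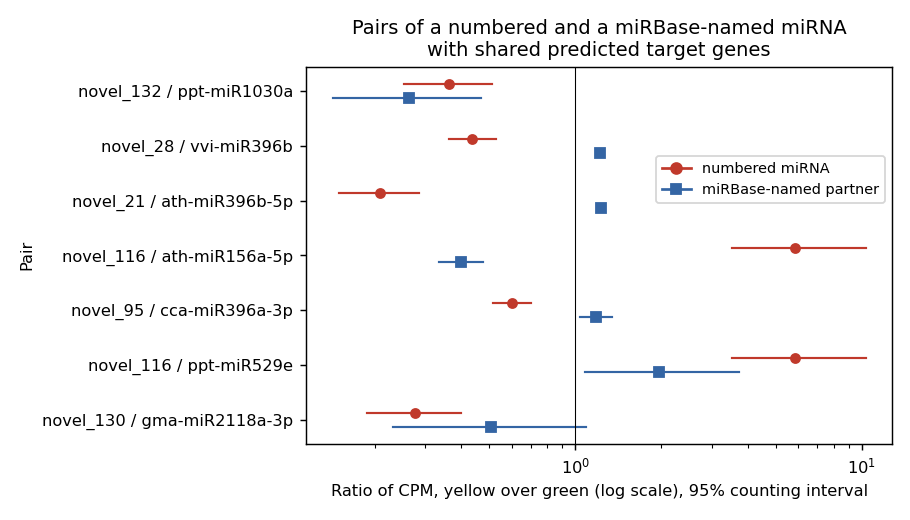
Ratio of yellow over green CPM on a log axis, with 95% exact counting intervals, for the 6 numbered names that share 5 or more predicted target genes with a miRBase family (red circles, 2 pairs for novel_116) and for the name of that family with at least 20 reads that shares the most of them (blue squares). The vertical line marks a ratio of 1. The members of a pair lie on opposite sides of it for miR396 and miR156, and on the same side for miR1030, miR529 and miR2118.

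The largest set shared with 1 family was that of novel_132 and miR1030, a family named from the moss Physcomitrium patens. They shared 16 genes, which were 55.2% of the 29 targets of novel_132 and 64.0% of the 25 of miR1030. Among them were Gb_07156, matching the transcription factor PIF3, which acts in phytochrome light signalling in Arabidopsis, Gb_06182, matching bHLH140, and Gb_11573, matching chloroplast ribosomal protein S10. novel_132 had 103 green and 50 yellow reads (49.4 and 17.9 CPM), 2.76-fold lower (1.95 to 3.95), and fell short of the limit with TMM, at a ratio of 0.501. ppt-miR1030a had 48 and 17 reads and a ratio of 0.264 (0.142 to 0.468). Both names of the pair were lower in the yellow library.

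The names that shared 1 or 2 genes with a family included some with the family's best-known target. novel_84, with 344 and 180 reads and 2.56-fold lower (2.13 to 3.08), a call lost with TMM and median of ratios, shared Gb_18240 with miR165 and miR166. That gene matches ATHB-15, an HD-ZIP III factor of leaf polarity. novel_297, with 34 and 37 reads and a ratio of 0.812 (0.496 to 1.33), shared Gb_28344, matching SCARECROW-like 6, with miR171. novel_115 shared Gb_16793 and Gb_23559, which match transposon polyproteins, with names of miR845, a family known in Arabidopsis for matching retrotransposons. None of these miR845 names had 20 reads, and ath-miR845a had 1 green and 0 yellow reads. novel_114 shared Gb_39582, matching TAR1, with peu-miR2916, which had only 2 green and 0 yellow reads. In yeast TAR1 is encoded antisense to ribosomal RNA. novel_117, with a ratio of 0.613 (0.337 to 1.10), and novel_131 each shared 1 gene with miR319. The miR319 name that shares with novel_131, gma-miR319c, had 0 green and 2 yellow reads. A further name, novel_118, had 28 targets at levels of 51.8 and 51.9 CPM (scaled by the total), and it shared 4 genes without a protein match with miR156, miR166, miR396 and miR1314. Its miR156 partner, hbr-miR156, had 0 green reads and 1 yellow read.

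Per gene, the share listed for a miRBase name differed between the calls. Of the 162 target genes of lower names 48 were shared with a miRBase name, or 29.6%, against 9 of 117, or 7.69%, for higher names and 17 of 189, or 8.99%, for uncalled names. In both directions a few names held most of the shared genes: novel_132, novel_28, novel_21 and novel_130 held 44 of the 48 of lower names, and novel_116 held 6 of the 9 of higher names, beside 1 gene each for novel_137, novel_213 and novel_330. These calls rest on scaling by the total. With TMM novel_132 and novel_28, which share 16 and 14 genes, were not called lower, and the shares by call were not recomputed. Per name the shares were close, with 8 of the 21 lower names that have targets sharing a gene (38.1%), 4 of 11 higher names (36.4%) and 8 of 26 uncalled names (30.8%). novel_213, with 12 and 56 reads and a ratio of 3.48 (1.85 to 7.14), had 25 targets, among them Gb_08575, matching the homeobox factor ATHB-13, and Gb_14657 and Gb_14667, matching an auxin-conjugating GH3.5 enzyme.

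Among themselves the numbered names of middle abundance shared few targets. Of the 463 genes 452 were listed for 1 of the 71 names and 11 for 2 or more, and the most shared by any pair was the 5 genes of novel_21 and novel_28. Only 9 of the 463 genes were also listed for a numbered name of 1000 or more reads, and 362 were listed for a single name of this group and no other miRNA in the table.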

How the data were processed

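The members, keyword groups and rules were chosen with earlier results of these data known. The authors deposited raw read counts per miRNA name, 1 column per library, and a table of predicted target genes with the miRNA names and the best protein match; Bowtie is named, with no version, in the submitters' processing notes. The genome build, miRBase release, counting rule and the tools behind the predicted miRNAs and targets are not stated in the sources used. The column total sums names that can count the same reads, so CPM is a share of that sum. Ratios and intervals were computed with Python 3.11.15, pandas 2.3.3 and SciPy 1.17.1, and checked on simulated data. The simulated reads were drawn from the counting model that the interval assumes. That check covers the computation only, not spread between libraries or reads counted under several names. Where a library had 0 reads the ratio used a floor of 3 counts (1.44 CPM green, 1.07 CPM yellow). Other scalings tried were TMM (edgeR 4.0.16), median of ratios (DESeq2 1.42.0) and a total that leaves out novel_1, besides other read and fold limits, and other rules for shared targets. Shared genes were matched by gene ID, and families by the miR number. Named members were the 5 most read, the 8 highest and 8 lowest called ratios with reads in both libraries, every name with 0 reads in 1 library, the 5 with most targets, the 5 sharing most with miRBase names and the 3 on either side of each read limit. Other names were chosen after their values were seen. No sequence or genome position was analysed. 1 miRNA name in the target table, novel_2, has no count and was not used as a member.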

Additional observations from a re-analysis of the deposited data

How the results depend on the processing

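No paired analysis was possible because there is 1 library per leaf type. The summed ratio of the 71 numbered names was 0.741 (0.720 to 0.762) scaled by the total and 1.02 with TMM, the direction being reversed; it was 0.993 with median of ratios, 0.890 with the total without novel_1 and 0.714 from 100 reads up. The other 3 scalings raise every log2 ratio by 0.47, 0.42 and 0.27. The median log2 ratio of -0.52 became -0.051, -0.10 and -0.25, or -0.72 from 100 reads and -0.36 from 20 reads up. The 24 lower names became 13 with TMM and 11 with a 3-fold limit, and the 17 higher names 9 from 100 reads up. The other counts of calls, targets and shared genes stayed within 1.5 times. The split of shared genes by call was not recomputed under the other scalings. Of the 27 named members 23 kept direction and call under each scaling; novel_115 reached 1.35 (TMM), 1.31 (median of ratios) and 1.18 (without novel_1), and novel_28, novel_94 and novel_132 lost calls. The cause was not tested. With 1 library per leaf type the spread between libraries was not measured, so no difference of any size or depth could be set against it. Differences near 2-fold at under 100 reads are limited by counting error as well.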
